A study of Mus musculus with 6 samples.

Results

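The cells described here were cytotoxic lymphocytes recovered from a mouse mammary tumor, 433 of the 17562 tumor cells that passed the cell filters and of 58561 cells deposited for the whole series. They were chosen by UMI counts (unique molecular identifiers, 1 per captured transcript) of 2 gene sums. The first sum, X, added Nkg7, Gzmb, Gzmc, Xcl1 and Klrd1, and the second, Y, added Cd3d, Cd3e, Trac, Tnfrsf4 and Icos. A cell was a member if X was at least 5 and above 2 times Y, with at most 2 UMIs of C1qa, C1qb and C1qc together and at most 2 of Pecam1. Because the members were selected on these values, their X and Y genes are given below as a description only. Just outside the threshold, 8 cells had an X of 4, and just inside it 11 cells had an X of 5. A further 192 cells had an X of at least 5 but at most 2 times Y, without being T lymphocytes by the reverse rule given below, and 99.5% of them held a Cd3g UMI.

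All 3 tumor libraries were 1 replicate on tissue of 1 source mouse, a female MMTV-PyMT animal aged 10 weeks, in which the mouse mammary tumor virus promoter drives the polyoma middle T oncogene in mammary epithelium. Minced tumor was digested with type I collagenase, either as a 60 min control or in a microfluidic platform that digested the tissue, passed it once through a dissociation and filter device, and was emptied at 15 min and again at 60 min, so that the 60 min cells are those recovered after the 15 min fraction. Live cells were sorted as SytoxBlue-negative after DNase I treatment and lysis of red blood cells. The study asked how the platform changes which cells are recovered and in what state, and 3 kidney libraries from a male C57BL/6 mouse aged 12 weeks, processed the same way, serve here only for comparison.

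Natural killer (NK) cells and gamma-delta T cells kill target cells by releasing perforin and granzymes from granules, and they call in dendritic cells and macrophages through chemokines such as Xcl1. NK cells read targets through receptors of the Klr and Ncr families, which signal through the adaptors Tyrobp, Fcer1g and Hcst, and they lack a surface CD3 complex. Gamma-delta T cells carry CD3 together with a receptor whose constant parts are encoded by Trdc and the Tcrg-C genes, and in epithelia many of both kinds hold on to their neighbours through the integrin Itgae (CD103).

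Each condition had 1 library, so no test between conditions was possible. Intervals are at the 95% level and cover counting error only: exact binomial for shares, exact Poisson for levels, exact conditional for ratios of levels and log-scale binomial for ratios of shares. Both platform libraries were set against the same control library. Levels are CPM, the UMIs of a gene per 1000000 UMIs of the cells described in a library, and 0.5 UMI was added to each sum before a ratio. The members held 1725204 UMIs in the control, 1127702 in the 15 min and 1122346 in the 60 min platform library, so that 3 UMIs correspond to 1.74, 2.66 and 2.67 CPM. Median depth was 9704, 7795.5 and 8210.5 UMIs per cell.

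The members formed a small share of every tumor library, and the share was lower in both platform libraries than in the control. They were 171 of 5736 cells in the control (2.98%, interval 2.56 to 3.45%), 134 of 5802 in the 15 min library (2.31%, 1.94 to 2.73%) and 128 of 6024 in the 60 min library (2.12%, 1.78 to 2.52%). The ratio to the control was 0.775 (0.620 to 0.968) at 15 min and 0.713 (0.568 to 0.894) at 60 min, and the ratio of the 60 min to the 15 min library was 0.920 (0.724 to 1.17). Neither interval against the control reached 1, whereas the platform libraries did not differ beyond counting error. At 15 min the interval took in 1 when the 17 members holding other cell types' genes, described below, were left out (ratio 0.801, 0.638 to 1.004) and when only members with at least 2 CD3 UMIs were counted (0.819, 0.638 to 1.05), while at 60 min it stayed under 1 in both cases. A share does not give the number of cells recovered from the tissue. T lymphocytes picked by the reverse rule (Y at least 5 and above 2 times X) took 1.05, 1.02 and 2.95% of the cells. Of the members and these T lymphocytes together, the members were therefore 74.0%, 69.4% and 41.8%.

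The deposited barcodes of the 3 tumor libraries overlapped by 16 to 21 sequences between pairs of libraries. No barcode was a member in more than 1 library, and 1 member had a barcode that also occurred in another tumor library. Scrublet, a doublet caller, marked 5, 6 and 1 members in the control, 15 min and 60 min libraries, and 13, 8 and 3 members held more than 2 UMIs of the epithelial keratins Krt8 and Krt18. Median mitochondrial shares were 4.93, 4.54 and 4.64%.

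The label of NK-like and gamma-delta lymphocytes matched these cells only in part. Most members held RNA of a CD3 chain, which does not show a CD3 complex at the surface: 77.1% had a UMI of Cd3d, Cd3e or Cd3g. By library, in the order control, 15 min and 60 min, the shares were 80.7, 85.8 and 63.3%. Cd3g, which the rule did not use, was found in 76.0%, against 0.701% of 9696 epithelial-class cells, a class that should lack it, at median depths of 8576 UMIs in the members and 9367 in that class. Trdc was found in 46.0% and a Tcrg-C gene in 67.7%. Trac, the alpha constant gene, was present in 35.6% and a Trbc gene in 94.7%. Constant-region UMIs do not show which receptor a cell had rearranged, and 126 of the 154 cells with Trac also held a Tcrg-C gene.

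Defining genes of NK cells were found in fewer members. The activating receptor Ncr1 (NKp46) was detected in 39.8, 45.5 and 60.9% of members in the control, 15 min and 60 min libraries. Klrb1c (NK1.1) was detected in 14.0, 10.4 and 24.2%, and the transcription factor Eomes in 10.5, 12.7 and 26.6%. The adaptors Tyrobp and Fcer1g were widespread, in 78.5 and 91.7% of members, against 10.1 and 6.73% of the T lymphocytes. The T lymphocytes were shallower, with medians of 3834.5, 3175 and 2988.5 UMIs, so these shares were not taken at like depth. Macrophages carry these adaptors too, and they reached 99.3 and 98.1% in the macrophage class. With each cell thinned to 1000 UMIs, a CD3 chain was seen in 73.7, 76.9 and 53.9% and Ncr1 in 9.36, 23.9 and 26.6% of members, so the order of the libraries was kept for both. A CD8 alpha chain (Cd8a) occurred in 25.9% of members, while the helper co-receptor Cd4 was seen in 1 of 433 cells (0.231%). None of the genes listed for the interleukin-17 programme of gamma-delta cells reached 100 UMIs over the members, and 5 of them, Il17a and Il17f included, had none.

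**Figure D1:**
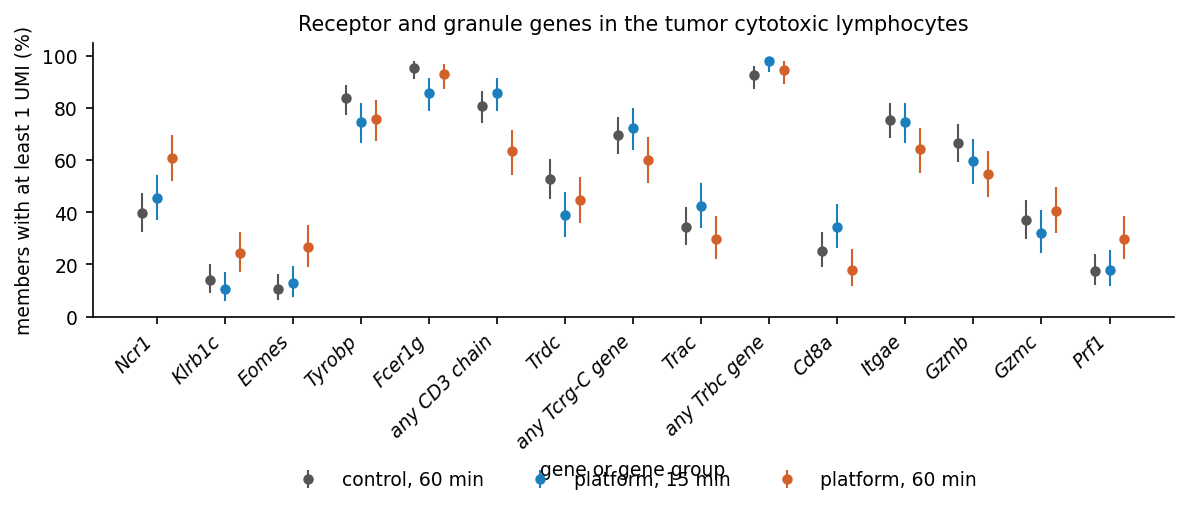
Share of members with at least 1 UMI of each gene or gene group (y axis, %) in the 3 tumor libraries, with exact binomial 95% intervals. A CD3 chain was found in 80.7, 85.8 and 63.3% of members, and Klrb1c and Eomes were at or below 26.6% in every library.

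Cd8a and Ncr1 were seldom found in the same cell. Of 112 members with Cd8a, 8 also held Ncr1 (7.14%), whereas 199 of the 321 members without Cd8a did (62.0%). These cells were compared after that value was seen, and only genes other than Cd8a and Ncr1 are described. The 104 cells with Cd8a but no Ncr1 carried Trac in 68.3%, Tcrg-C2 in 69.2%, the lectin-like receptor Klra5 in 74.0% and Itgae in 88.5%. The 199 cells with Ncr1 but no Cd8a carried the same genes in 19.1, 25.1, 19.6 and 56.3%. Klrb1c was seen in 30.7% of the Ncr1 cells and in none of the Cd8a cells (0 of 104, which allows a share with a UMI of up to 2.88% and limits detection, not expression), and Eomes in 28.1 and 6.73%. A CD3 gamma chain (Cd3g) was present in 96.2% of the Cd8a cells and still in 58.8% of the Ncr1 cells. Both sets expressed Xcl1, in 97.1 and 92.5% of cells. For Trac, Tcrg-C2, Klra5, Itgae, Klrb1c and Klre1 the 3 libraries of one set did not overlap the 3 of the other. The same held for Cd3g, Trbc1, Cd8b1, Eomes, Gzmb, Cd160, Ccl5 and Fcer1g. Trbc1 was lower in the Cd8a cells, at 41.0 to 51.2% against 77.6 to 87.0%. Trdc overlapped, in 32.7% of the Cd8a and 46.2% of the Ncr1 cells, and Cd8b1 was seen in 24.0% of the Cd8a cells. Tcrg-C1, Tcrg-C4, Trbc2, Tyrobp, Gzmc, Gzma and Xcl1 also overlapped. Trac, Gzmb, Gzmc and Xcl1 are rule genes. No share without overlap is given over all genes, so the number of genes named has nothing to be set against. The libraries came from the same mouse and are not replicates, so a lack of overlap does not cover mouse-to-mouse spread.

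**Figure D2:**
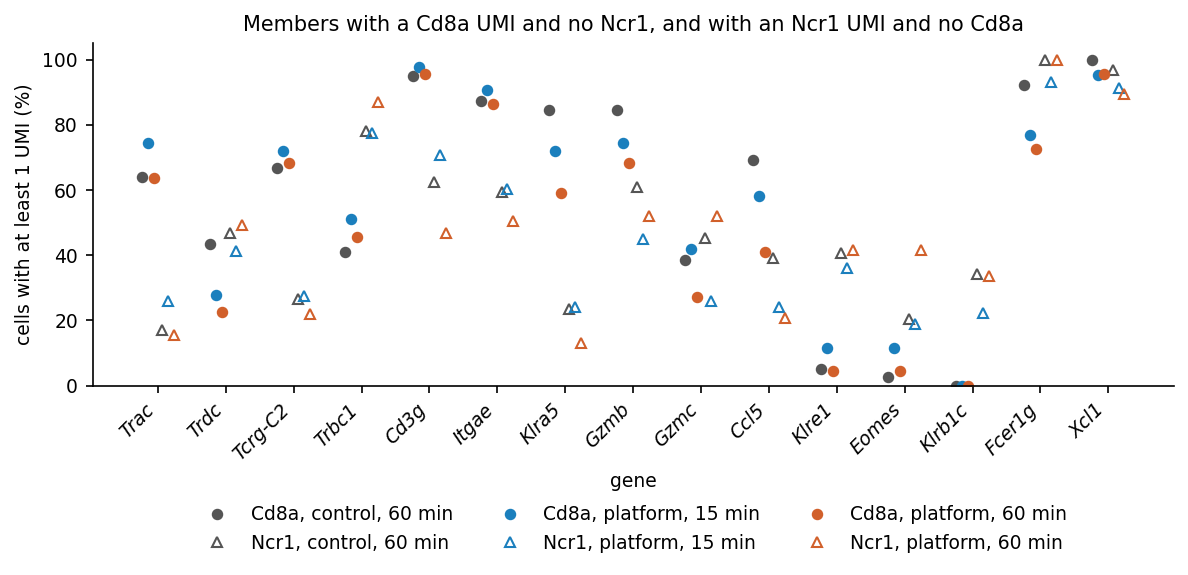
Share of cells with at least 1 UMI (y axis, %) among members with Cd8a and no Ncr1 (filled circles) and with Ncr1 and no Cd8a (open triangles), 1 point per tumor library. Klra5 was found in 59.1 to 84.6% of the first set and 13.0 to 24.1% of the second, and Klrb1c in 0% of the first.

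The members also split by the CD3 chains themselves. Of them, 320 held at least 2 UMIs of Cd3d, Cd3e and Cd3g, and 99 held none. Cells with none were 33 of the 171 control members (19.3%), 19 of the 134 in the 15 min library (14.2%) and 47 of the 128 in the 60 min library (36.7%). As a share of all filtered cells they were 0.575, 0.327 and 0.780%, or 0.453, 0.310 and 0.681% (26, 18 and 41 cells) without the 14 of them that held other cell types' genes, while cells with at least 2 CD3 UMIs were 2.34, 1.91 and 1.25%. At 60 min the cells with at least 2 CD3 UMIs had a ratio to the control of 0.533 (0.403 to 0.705). Cd3d and Cd3e are Y genes, which the rule limits relative to X, so cells with many of their UMIs and a low X were not members. The split and its shares are therefore a description only. The perforin gene Prf1 stood at 169, 414 and 324 CPM in the cells without CD3 and at 21.4, 26.4 and 44.4 in those with it. Ncr1 stood at 303, 977 and 573 without CD3 and at 89.3, 234 and 223 with it. Itgae was higher with CD3, at 407, 411 and 354 against 103, 199 and 162, as was Cd7, at 1696, 1750 and 1244 against 331, 389 and 277. With those 14 cells left out, Prf1 in the cells without CD3 stood at 277, 453 and 393 and Ncr1 at 498, 1069 and 659.5. Itgae stood there at 153, 217 and 193 and Cd7 at 481, 426 and 303. Each gene was on the same side of the cells with CD3. Some UMIs of other types remained in these cells, so leaving out the 14 did not clear the set of them. Genes listed for macrophages summed to 1783, 217 and 283 CPM there, and genes listed for tumor epithelium to 843, 3352 and 1619.

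A few members were marked by genes of other cell types, which were looked for after the first values were seen. In all, 17 members (8, 2 and 7 in the control, 15 min and 60 min libraries) held at least 10 UMIs of the class II genes H2-Aa and H2-Ab1, at least 10 of the granulocyte genes S100a8 and S100a9, or at least 2 of Siglech, a marker of plasmacytoid dendritic cells. In 12 of the 17, X was made up of Klrd1 alone, and these 12 were the only members of which that was true. The 8 genes listed for dendritic cells summed to 4018, 872 and 2103 CPM in the members, and with the 17 cells left out to 176, 91.9 and 215. H2-Aa and H2-Ab1 are in this list, and S100a8 and S100a9 are in the granulocyte list below. A fall of these sums without the 17 cells therefore follows in part from how those cells were chosen. Xcr1 was at 0 in every library and Clec9a had 1 UMI. The 9 macrophage genes summed to 450.4, 229 and 306, the 6 granulocyte genes to 225, 7.09 and 48.1 (38.6, 7.28 and 51.3 with the 17 cells left out) and the 9 tumor epithelium genes to 1547, 3081 and 1194, against 35933, 41929 and 23997 for the epithelial genes in all other cells.

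Outside the rule, the genes that stood highest in the members over all other filtered tumor cells were granule and receptor genes. Among genes with at least 100 UMIs over the members, the 15 with the largest ratios held the rule's own Gzmc, Gzmb and Xcl1. The others were Gzmd, Gzma and Prf1, the receptors Klrb1f, Ncr1, Klra4, Klre1, Klra5 and Klrc2, the gamma constant gene Tcrg-C4, Cd7 and Ly6g5b. Gzma stood at 369.5 against 1.39 CPM, Ncr1 at 246 against 1.12, Prf1 at 81.5 against 0.439 and Cd7 at 1331 against 12.0. In the mm10 build Gzmb lies on chromosome 14 from 56258838 to 56262260 and Gzmc from 56231441 to 56234656, both on the minus strand, with Gzmd at 56129556 to 56132608. Trdc lies on the same chromosome at 54142851 to 54148868 on the plus strand, inside the T cell receptor alpha locus, and Xcl1 lies on chromosome 1 at 164931644 to 164935527 on the minus strand. Near-identical granzyme copies can share reads, so single values of Gzmd, Gzme and Gzmf are uncertain.

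Granzymes B and C, both rule genes, differed from the control in opposite directions at 60 min. Granzyme B, a serine protease that triggers apoptosis in target cells, stood at 2433, 2398 and 1103 CPM in the control, 15 min and 60 min libraries. It was level between the control and 15 min and lower at 60 min, with a ratio to the control of 0.454 (0.425 to 0.483). Granzyme C, another granule protease, stood at 870.0, 691 and 2799. Its ratio to the control was 0.794 (0.727 to 0.866) at 15 min and 3.22 (3.02 to 3.42) at 60 min. The shares of members with a UMI differed less, with Gzmb in 66.7, 59.7 and 54.7% and Gzmc in 36.8, 32.1 and 40.6%. Both directions at 60 min held in the cells with at least 2 CD3 UMIs, where Gzmb stood at 2862, 2701 and 1270.3 and Gzmc at 930, 406 and 2618. The lower Gzmb did not reach 2-fold in the cells without CD3, taken without the cells of other types. There none of the 5 X genes was at least 2-fold lower at 60 min.

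Granzyme C rested on few cells. The 10 members with the most Gzmc UMIs held 78.0, 90.1 and 79.6% of them in the 3 libraries. A single cell among them, which had 7 CD3 UMIs, held 702 of 3141 at 60 min. With those 10 cells left out of each library the levels were 205, 76.0 and 641 CPM. The 10 highest cells for Gzmb held 31.4, 47.9 and 52.8% of its UMIs, and the levels without them were 1837, 1384 and 580.4, in the same order. Gzma, an abundant granzyme of circulating NK cells, was found in 11.7, 11.9 and 13.3% of members, and its 10 highest cells held 88.2 to 97.5% of its UMIs. Of the 158 cells with Gzmc, 123 also held Gzmb (77.8%), while 16 of the 53 cells with Gzma held Gzmc. Of the 10 listed granzymes, Gzmk and Gzmn had no UMI in any member.

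**Figure D3:**
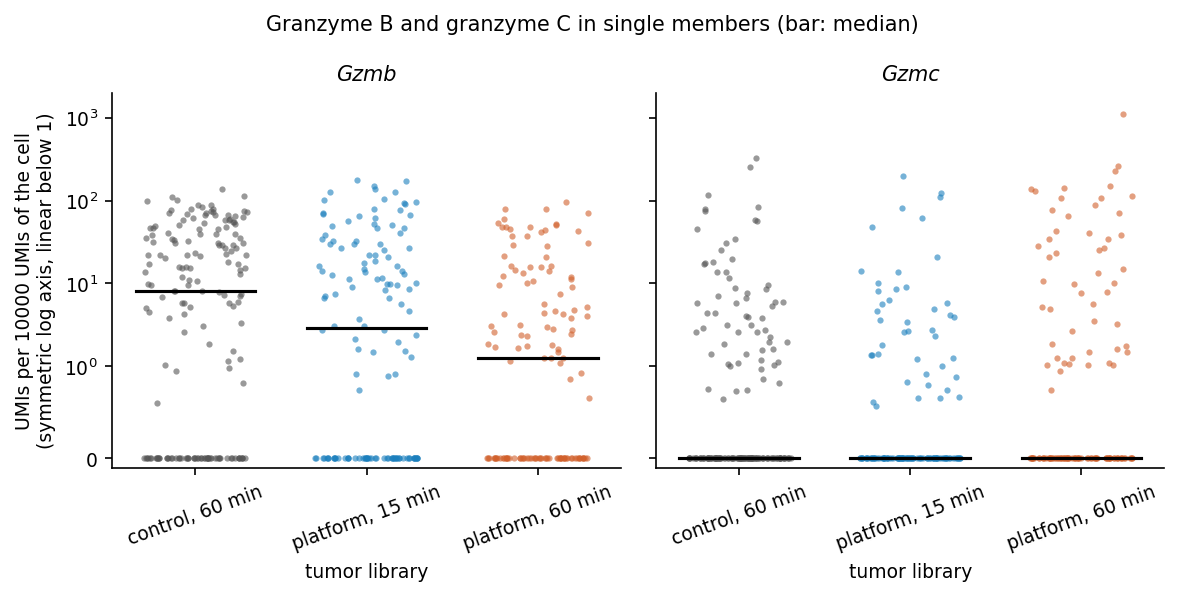
Gzmb (left) and Gzmc (right) in each member, as UMIs per 10000 UMIs of the cell (y axis, symmetric log scale, linear below 1), in the 3 tumor libraries; bars mark medians. The Gzmb median is 8.15, 2.90 and 1.25 from left to right, and the Gzmc median is 0 in every library because under 41% of cells hold a UMI.

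Of the 13 genes listed as partners of the granzymes in the granule, 11 had at least 100 UMIs over the members. At 15 min over the control, 1 was at least 2-fold higher and 2 were at least 2-fold lower. Over all 4387 genes with that depth, 3.1% were at least 2-fold higher and 4.44% at least 2-fold lower. The higher gene was Tnfsf10 (TRAIL), a death ligand, at 50.4, 152 and 82.0 CPM. Serpinb9, an inhibitor that protects killer cells from their own granzyme B, was lower at 15 min, at 378, 139 and 291. At 60 min over the control 1 gene was higher and none lower, where 1.82% of all genes were at least 2-fold higher and 2.07% at least 2-fold lower. That gene was Prf1, at 54.5, 68.3 and 136, with a ratio of 2.50 (1.92 to 3.27). Cells without CD3, where Prf1 was higher as given above, were 19.3% of the control and 36.7% of the 60 min members. Within them, taken without the cells of other types, none of 7 partner genes was at least 2-fold higher at 60 min. The part of this make-up in the Prf1 ratio was not tested.

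A part of the receptor genes of NK cells and related innate lymphocytes stood higher in the platform libraries. Of 18 receptor genes with at least 100 UMIs, 5 were at least 2-fold higher at 15 min and 5 at 60 min, and none was at least 2-fold lower, with median log2 ratios of 0.33 and 0.62 against 0.05 and -0.04 for all genes. Without the 17 cells of other types 1 was at least 2-fold lower in each comparison. Ncr1 stood at 130, 325 and 346 CPM, a ratio of 2.50 (2.11 to 2.97) at 15 min and 2.66 (2.25 to 3.15) at 60 min. Klrk1 (NKG2D), which recognises stress ligands on tumor cells, stood at 199, 367 and 367. The adhesion receptor Cd226 (DNAM-1) stood at 75.4, 202 and 111. Klra5, at 289, 363 and 212, and Il2rb, at 706, 505 and 543, were not higher in both platform libraries. Cells without CD3 made up more of the 60 min library. Among the cells with CD3 Ncr1 was also higher in both platform libraries, at 89.3, 234 and 223. Among those without CD3, taken without the cells of other types, 1 of 5 receptor genes was at least 2-fold higher at 15 min and none at 60 min. None was at least 2-fold lower there. The part of this make-up in the receptor ratios was not tested.

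Signalling adaptors and receptor chains differed less. Of 10 adaptor genes with enough UMIs, 1 was at least 2-fold higher in each comparison (Sh2d1b1 at 15 min and Sh2d1a at 60 min, where 2 were higher without the 17 cells of other types) and none lower. Tyrobp stood at 1217, 1245 and 1112 CPM and Fcer1g at 1495, 1526 and 1047. None of the 4 gamma-delta receptor genes with enough UMIs was past 2-fold in either direction. Trdc, one of the label's markers, stood at 639, 485 and 446, in 52.6, 38.8 and 44.5% of members. The CD3 chains summed to 3410, 3435 and 2239, and in the cells with at least 2 CD3 UMIs to 4199, 3925 and 3477. No ribosomal protein gene of 83 and no mt- gene of 12 was past 2-fold.

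Several secreted mediators were higher in the platform libraries. Of 11 mediator genes with enough UMIs, 6 were at least 2-fold higher and 2 at least 2-fold lower at 15 min over the control, and 6 were higher and 1 lower at 60 min, with median log2 ratios of 1.17 and 1.15. Without the 17 cells of other types the medians over the 10 genes left were 2.02 and 1.52, and in the cells with at least 2 CD3 UMIs, over 9 genes, 1.59 and 0.32. Interferon gamma (Ifng), the cytokine that activates macrophages, stood at 4.64, 43.5 and 102 CPM, in 5, 26 and 29 cells. The ratio to the control was 8.91 (4.40 to 22.9) at 15 min and 20.9 (10.8 to 52.4) at 60 min. Lymphotoxin alpha (Lta) stood at 2.90, 67.4 and 47.2, and its partner lymphotoxin beta (Ltb) at 468, 1488 and 1041. Both platform libraries were above the control for Ifng, Lta and Ltb, and the same held in the cells with CD3, where Ifng stood at 1.43, 37.5 and 118. Xcl1, a rule gene, was found in over 90% of members in every library and stood at 2336, 3695 and 2775.

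Some of the chemokines came from few cells. Ccl1 had 1, 136 and 24 UMIs, from 4 cells in each platform library, which gave ratios of 139 (36.7 to 8278) and 25.1 (6.02 to 1517). A single cell, 1 of the 17 of other types, held 83.3% of the Ccl1 UMIs at 60 min, and without the 17 the level there was 3.80 CPM. Ccl4 stood at 27.2, 166 and 546 CPM, and at 28.6, 152 and 105 with the 17 cells of other types left out. In the cells with at least 2 CD3 UMIs it stood at 24.3, 109 and 20.8, so that the higher level at 60 min was not found there. Ccl4 was also high in all other filtered cells, at 705, 766 and 3000 CPM, and the part of free RNA in the members' value was not tested. Ccl5 went the other way, at 1583, 959 and 801. Areg, a growth factor of the epidermal growth factor family, was lower in the platform libraries, at 51.0, 0.887 and 10.7, from 13, 1 and 6 cells. With cells filtered only on at least 200 genes, its log2 ratio at 15 min was -1.73.

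Several early response genes and transcription factors were also lowest in the control. Myc, a driver of cell growth, stood at 3.48, 70.9 and 58.8 CPM, in 6, 44 and 35 cells, with ratios of 18.9 (8.97 to 57.2) at 15 min and 15.7 (7.37 to 47.7) at 60 min. With cells filtered only on at least 200 genes, the log2 ratios of Myc were 2.50 and 2.13, against 4.24 and 3.98 with all filters. Ahr, a ligand-activated factor that tissue-resident lymphocytes need, stood at 16.2, 99.3 and 91.8, in 17, 56 and 45 cells. Rasgrp1, which links antigen receptors to Ras, stood at 12.8, 87.8 and 46.3, and Spry2, a feedback inhibitor of that pathway, at 18.5, 103 and 88.2. In all 4 genes both platform libraries were above the control, also within the cells with CD3. Cd69, an early activation marker, stood at 137, 404 and 290.5. Of 27 feedback and early genes, 7 were at least 2-fold higher and 2 lower at 15 min, and 12 were higher and 1 lower at 60 min. Without the 17 cells of other types 8 were higher and none lower at 15 min, and 11 were higher and 1 lower at 60 min. In the rest of the members without CD3, 4 of 19 genes were higher and 4 lower at 15 min. At 60 min 3 were higher and none lower there. These counts rest on 26, 18 and 41 cells and have no share over all genes beside them.

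**Figure D4:**
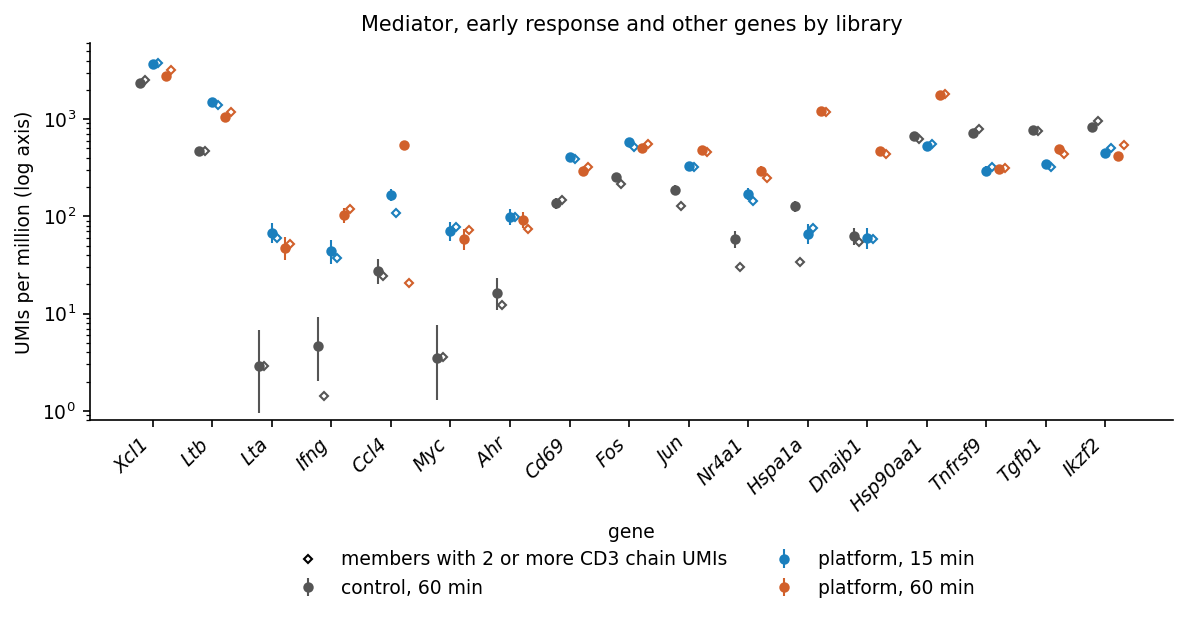
Levels of 17 genes in the members (y axis, CPM, log scale) in the 3 tumor libraries: filled circles with exact Poisson 95% intervals for all members, open diamonds for members with at least 2 CD3 chain UMIs. Ifng, Lta, Myc and Ahr are lowest in the control for both sets, and the Ccl4 level at 60 min is 546 in all members and 20.8 in those with CD3.

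Heat shock genes were high in the 60 min platform library. Hspa1a, an inducible chaperone, stood at 127, 66.5 and 1196 CPM, a ratio to the control of 0.526 (0.398 to 0.684) at 15 min and 9.40 (8.16 to 10.9) at 60 min. It was detected in 27 of 171, 17 of 134 and 64 of 128 members. A single control cell held 51.6% of the control UMIs, and without the 17 cells of other types the levels were 64.7, 68.3 and 1195, so that the lower value at 15 min was not found there. Its co-chaperone Dnajb1 stood at 62.0, 59.4 and 471, and Hsp90aa1 at 676, 522 and 1785. Hspa1a had the same pattern in all other filtered cells, at 787, 317 and 2294.

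The 12 stress genes that the study displayed one by one summed to 6606, 7753 and 10689 CPM in the members. At 15 min over the control 4 of them were at least 2-fold higher and 1 (Gadd45b) at least 2-fold lower, and at 60 min 4 were higher and none lower. Without the 17 cells of other types 6 were higher at 15 min and 7 at 60 min, and none was lower. Fos stood at 253, 582 and 498, Nr4a1 at 58.0, 168 and 293 and Jun at 187, 329.9 and 479. In cells thinned to 1000 UMIs the 12 genes had a median of 6, 7 and 9 UMIs per cell. The same sum was 7905, 13115 and 15353 in the T lymphocytes and 13172, 15183 and 18730 in all other filtered cells, with the same order of libraries. Members with at least 2 CD3 UMIs had 6134, 7573 and 10446. Members without CD3, taken without the 17 cells of other types, had 8728, 8697 and 9946. Among those, 1 of 8 genes was at least 2-fold higher and 1 at least 2-fold lower at 15 min. At 60 min 1 was higher and none lower, and no share over all genes is given for these cells. Csn3, a milk casein of the tumor epithelium at 8501 in the other cells, stood at 320, 1093 and 364 in the members, and the part of such free RNA in their stress values was not tested.

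Some checkpoint and activation genes were lower in the platform libraries. Of 11 with enough UMIs, 5 were at least 2-fold lower at 15 min and 2 at 60 min, and none was at least 2-fold higher, with median log2 ratios of -0.28 and -0.30. Without the 17 cells of other types 4 were lower at 15 min and 3 at 60 min. Tnfrsf9 (4-1BB), a co-stimulatory receptor induced by activation, stood at 725, 294 and 304 CPM, with ratios of 0.407 (0.359 to 0.459) and 0.420 (0.371 to 0.473). Pdcd1 (PD-1) stood at 99.1, 9.75 and 44.5, in 15.2, 4.48 and 8.59% of members. Among transcription factors Ikzf2 (Helios) stood at 834, 452 and 421 and Rora at 62.6, 11.5 and 114. The cytokine Tgfb1 stood at 774, 344 and 494.5. Tnfrsf9, Pdcd1, Ikzf2 and Tgfb1 were highest in the control also among the cells with CD3.

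Among the genes with the lowest ratios, Ramp3, a partner of peptide hormone receptors, was found in 64 of 171 control members and in none of the 15 min members, at 93.9, 0 and 8.91 CPM, which made the 15 min level at least 35.3-fold lower against a count of 3. Osgin1, a gene induced by oxidative stress, was found in 74, 10 and 9 members and stood at 100.3, 13.3 and 10.7. Without the 17 cells of other types Ramp3 stood at 84.6, 0 and 8.56 and Osgin1 at 106, 13.7 and 11.4. Both were thus spread over many control cells.

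Several of the other low ratios rested on single cells or on the 17 cells of other types. A single control cell held 86.9% of the 260 control UMIs of S100a9, a granulocyte gene that had 0 and 2 UMIs in the platform libraries, and 1 held 86.5% of the 281 of Lyz2. Cd209a, Clec10a and Il1r2, genes of dendritic cells and other myeloid cells, had 123, 208 and 112 control UMIs, and none was left in any library without the 17 cells. Wfdc17 stood at 85.8, 6.21 and 16.0 CPM, and at 3.11, 2.73 and 2.85 without them. Il1b stood at 166, 11.5 and 412, where 1 cell held 97.2% of the 60 min UMIs, and at 52.9, 11.8 and 12.4 without the 17 cells. The 2 highest genes of the 60 min comparison also rested on few cells: 1 cell held 128 of the 142 Gzmd UMIs, and 2 cells held all 163 UMIs of the casein Csn1s1. Cp and Bglap3, at 33.0, 75.4 and 3.56 and at 24.3, 64.7 and 1.78, were found in at most 14 cells of any library. They were low at 60 min also without the 17 cells, and without the keratin-bearing members Cp had a log2 ratio of -1.08 there, against -3.06 with them.

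Cell cycle genes summed to 2951, 2137 and 2564 CPM, a ratio to the control of 0.724 (0.690 to 0.760) at 15 min and 0.869 (0.830 to 0.910) at 60 min, with median log2 ratios of -0.49 and -0.23. Members with at least 2 UMIs of Mki67, Top2a, Birc5, Cdk1 and Ccna2 together were 12.3% of the control (7.77 to 18.2%), 13.4% of the 15 min (8.16 to 20.4%) and 14.8% of the 60 min library (9.18 to 22.2%). The intervals of these shares overlapped throughout. None of 14 cell cycle genes was at least 2-fold higher in either comparison, and 1 was at least 2-fold lower at 15 min, none without the 17 cells of other types. Of 8 interferon response genes 1 was higher at 15 min, Ifit1 at 18.5, 79.8 and 14.3 CPM, and 1 lower at 60 min, Ifi27l2a at 308, 305 and 118 CPM.

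Against the T lymphocytes of the same libraries, 174 of 5310 genes were at least 2-fold higher and 203 at least 2-fold lower in every library. Since the 2 classes were cut by the rule's own sums, this is a description. Outside the rule the highest genes were Gzma, at 249 to 425 CPM against 0, and Klra5, Cd160, Klrc2 and Tcrg-C2. Itgae stood at 350.1, 384 and 283 against 59.5, 16.2 and 50.6, and Il2rb, the shared receptor chain for interleukin-2 and interleukin-15, at 706, 505 and 543 against 245, 162 and 186. Lower in the members were Foxp3, the factor of regulatory T cells, at 0 against 119, 134 and 130.3, and Cd4, at 0, 0.887 and 0 against 70.0, 162 and 75.9. The T lymphocyte class was itself mixed: Il12b and Fscn1, genes of mature dendritic cells, stood there at 304 to 393 and 143 to 435, and its control cells held 13511 CPM of granulocyte genes.

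In kidney the same rule, within the study's kidney cell filters, picked 350 cells: 94, 64 and 192 in the control, 15 min and 60 min libraries, or 1.60, 0.763 and 1.93% of the filtered cells. Of 5756 genes, 5.98% were at least 2-fold higher in the tumor members with no overlap between the 3 tumor and the 3 kidney libraries, and 6.72% were lower. Tissue, sex, strain, age and tumor cannot be told apart in this comparison. The extremes were mostly genes known from the epithelium of the tissue: Csn3, Lcn2, Ltf and Wfdc18 in tumor, and Kap, Fxyd2, Miox, Gpx3, Slc34a1, Akr1c21 and Spink1 in kidney. Kap, a kidney androgen-regulated gene, stood at 1051 to 4205 CPM in the kidney cells of the rule and at 38512 over all filtered kidney cells. Xist, which is transcribed in female cells, Gm10260, Gm11361 and Itgae completed the tumor side.

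Lymphocyte genes divided the tissues by type. Itgae stood at 283 to 384 CPM in tumor against 0 to 6.81 in kidney and was found in 71.8% of tumor members and at most 3.12% of the kidney cells of a library. All 4 gamma-delta receptor genes and all 3 CD3 chains with enough UMIs were higher in tumor, with median log2 differences of 2.64 and 2.20 against 0.01 for all genes. Cd3d and Cd3e are Y genes, which the rule limits relative to X in both tissues, so the CD3 figure is a description only. Cd3g, which the rule did not use, stood at 1469 to 2246 against 256 to 402. Of 23 NK receptor genes, 14 were lower in tumor and 1 was higher. Klrb1c stood at 16.8 to 44.5 against 170 to 623, and Klra8, an inhibitory receptor of the Ly49 family, at 3.56 to 9.75 against 158 to 439. Klra5 was the gene that was higher, at 212 to 363 against 3.26 to 5.39.

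Effector genes also differed. Gzmb stood at 1103 to 2433 CPM in tumor against 424 to 817 in kidney and Gzmc at 691 to 2799 against 35.9 to 225. Both are X genes, on which the cells were picked in both tissues, so their values are a description only. Gzma was lower in tumor, at 249 to 425 against 2591 to 8474, and so were Prf1, at 54.5 to 136 against 315 to 848, and Ccl5, at 801 to 1583 against 5086 to 12110. S1pr5 and Klf2, genes of circulating lymphocytes, stood at 0 to 0.891 against 8.16 to 61.3 and at 75.9 to 308 against 614 to 1335. Nkg7 and Ncr1 overlapped between the tissues. Of 15 cell cycle genes, 9 were higher in tumor and none was lower.

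**Figure D5:**
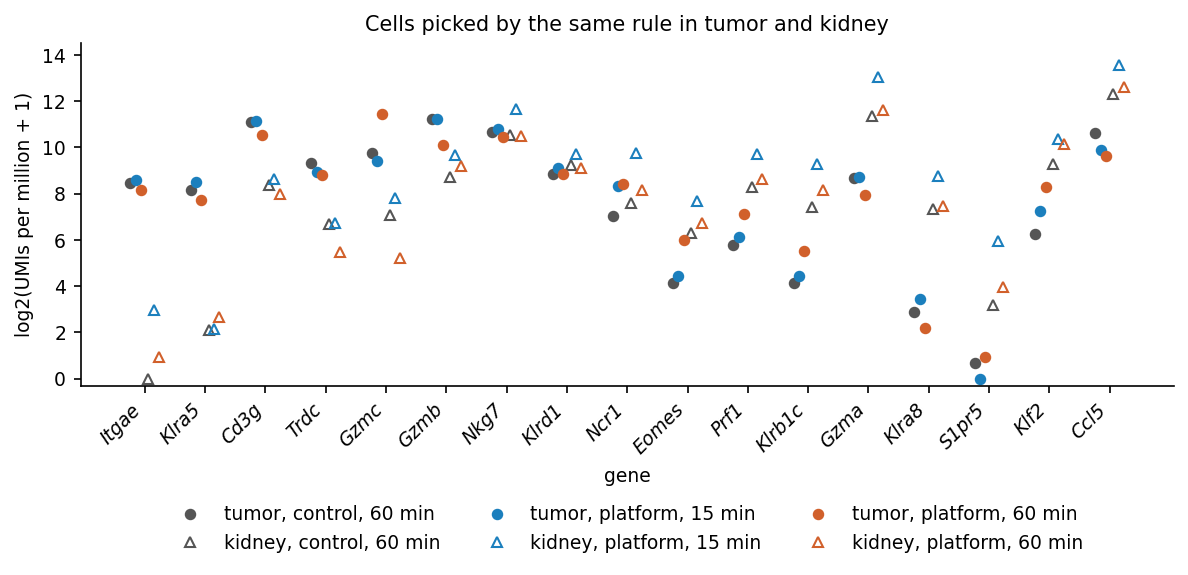
Levels of 17 genes, as log2(CPM + 1), in the tumor members (filled circles) and in kidney cells picked by the same rule (open triangles), 1 point per library. Itgae, Klra5, Cd3g and Trdc lie higher in all 3 tumor libraries, Prf1, Klrb1c, Gzma and Klra8 lie higher in all 3 kidney libraries, and Nkg7 overlaps.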

How the data were processed

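Dissociated, sorted cells of 3 tumor and 3 kidney libraries, 1 per condition, were measured by 10x Chromium v3 sequencing. The deposited matrices hold UMI counts per gene and cell (31053 genes), made by the authors with Cell Ranger 3.1.0 on mm10 and aggregated per tissue after depth equalisation; libraries were taken from the barcode suffix. Kept cells had 200 to 4000 genes and at most 25% mt- UMIs (kidney: 3000 genes, 50%). The members and gene lists were chosen with earlier results of these data known. UMIs were summed over the members of a library and divided by their total. Genes with at least 100 UMIs over the libraries compared were called at 2-fold, without a test, since no condition was replicated.

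Named genes were those of the rule and label, the most abundant or defining genes of 30 lists, the 8 highest and 8 lowest ratios of each comparison (no ribosomal or mt- genes) and the 15 leading genes; 1 gene of the kidney comparison is not reported here. Other list genes were named after their values were seen, mostly those past 2-fold. Genes given as holding other cell types' UMIs, and the Cd8a and Ncr1 sets, were chosen after values were seen. Shares were also taken in cells thinned to 1000 UMIs; Scrublet (scanpy 1.11.5) marked 0.928% of kept tumor cells as doublets, which were left out only as an alternative. Epithelial-class cells had at least 5 UMIs of Epcam, Krt8 and Krt18 and no Ptprc; the macrophage class had at least 5 C1q UMIs. Ratio code was tested on simulated data. Analysis used Python 3.11.15, numpy 2.4.6 and scipy 1.17.1. Positions are from GENCODE vM21.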

Additional observations from a re-analysis of the deposited data

How the results depend on the processing

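The lower share of members in both platform libraries kept its direction under 8 alternatives: X of at least 10 UMIs or 0.1% of UMIs, X above Y, no upper cell filters, no Scrublet-marked cells, no keratin-bearing members, and, added after seeing the data, without the 17 members of other cell types or with at least 2 CD3 UMIs only. In the last, which counts UMIs of the rule genes Cd3d and Cd3e, the 60 min ratio was 0.533. At 15 min the interval took in 1 under both added alternatives. With a minimum of 30 UMIs, which admits more genes, the counts past 2-fold at 15 min became 528 higher and 385 lower, and at 60 min 285 higher and 351 lower, against 136, 195, 80 and 91. Of 337 repeats for single genes, 297 stayed within the counting interval, 36 moved outside it in the same direction and 4 changed sign. Csn1s1 at 60 min had a log2 ratio of -2.81 with X of at least 10. Among the cells with CD3, Clec10a and Wfdc17 at 15 min had 3.68 and 2.09, and Ccl4 at 60 min had -0.20; the cause was not tested. A further 15 repeats left at most 3 UMIs on each side and gave no value. No paired analysis was possible because each condition had 1 library, which also means that no library could be left out. Depth limits genes under 3 UMIs per library, and mouse-to-mouse spread is unknown.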

Other observations

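Among the genes that direct lymphocyte fate and position, several differed between the libraries. Eomes, a factor of mature NK cells, stood at 16.8, 20.4 and 63.3 CPM (UMIs per 1000000) in the control, 15 min and 60 min libraries, while its relative Tbx21 (T-bet) stood at 60.9, 53.2 and 56.1. Klf2, which drives exit from tissue, stood at 75.9, 153 and 308, and Ccr7, the receptor that guides cells to lymph nodes, at 62.0, 9.75 and 19.6. Of 15 lineage factors with enough UMIs, 1 was at least 2-fold higher and 2 lower at 15 min, and 4 were higher and none lower at 60 min, or 3 and 1 of 13 without the 17 cells of other types. Of 16 residency and adhesion genes the counts were 2 and 2, then 2 and 1, and without the 17 cells, of 14 genes, 2 and 0, then 1 and 0. Of 5 alpha-beta receptor genes Cd8b1 alone was higher, at 15 min, at 23.2, 72.7 and 24.9.

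Genes of other cells summed to low levels in the members. The mast cell and basophil list summed to 26.1, 20.4 and 14.3 CPM, the endothelial list to 15.1, 20.4 and 23.2, the fibroblast list to 19.7, 23.9 and 79.3 and the red blood cell list to 0.58, 0 and 0.891. The plasmacytoid dendritic cell list, which holds Siglech, a gene used to choose the 17 cells, summed to 162, 236 and 313 (161, 137 and 128 without them). The B and plasma cell list summed to 145, 252 and 206, and in it Ighm was the only gene with at least 100 UMIs.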
